A study of Mus musculus with 6 samples.

Results

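Complex I, NADH:ubiquinone oxidoreductase, is the entry point of the respiratory chain. It takes electrons from NADH, hands them through flavin and iron-sulfur clusters to ubiquinone, and pumps protons across the inner mitochondrial membrane. Its peripheral arm carries the redox centres, its membrane arm carries the proton channels, and core subunits shared with bacteria are wrapped in accessory subunits. Assembly factors, many of them named Ndufaf, help build the enzyme and leave it once it is complete. Heart muscle is rich in mitochondria and depends on this chain for most of its ATP.

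Every gene with a platform symbol starting with Nduf was taken, by 1 probe set each: the one annotated with a single gene symbol that had the highest mean log2 value over all 6 samples. This gave 43 genes of 19938, namely 34 structural subunits of complex I, 7 assembly factors and 2 genes that bear the Nduf name but lie outside the complex, Ndufa4, now assigned to cytochrome c oxidase, and its paralog Ndufa4l2. Ndufb4, Ndufb4b and Ndufs5-ps were named only on probe sets with several symbols. Ndufb1, Ndufaf8 and the mitochondrially encoded mt-Nd subunits were not analysed here. RefSeq lists close copies or pseudogenes of Ndufa11, Ndufab1, Ndufa12, Ndufs6 and Ndufs5, so the values of these genes may mix signal from more than 1 locus. Ndufb11, Ndufs3 and Ndufc1 each had 2 probe sets with a single symbol. Whether the brighter set, taken here, reads another locus was not tested.

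The samples were whole cardiac ventricles at postnatal day 17 from 3 TG-17 mice and 3 wild-type (WT) littermates. Each mouse had its own array (Affymetrix Mouse Gene 1.0 ST). TG-17 mice carry a transgene in which the alpha-myosin heavy chain (Myh6) promoter, active in cardiac myocytes, drives the miR-499 precursor. The transgene was made in FVB/NCrl embryos, and TG-17 is a single transgenic line, so an effect of its insertion site cannot be told apart from that of the microRNA. In tissue of mixed cells, fewer cells of a type and less RNA per cell cannot be told apart. Values are log2 signals, and differences are TG-17 minus WT on that scale.

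The Mir499 probe set read 9.31, 9.33 and 8.87 in TG-17 ventricles and 5.48, 5.34 and 5.68 in WT ventricles, a 12.7-fold higher mean in TG-17 (log2 fold change 3.67 ± 0.15 SE, limma adjusted p = 0.00772). Array medians lay between 6.89 and 6.91 in TG-17 and between 6.93 and 6.95 in WT. The 10 ventricular cardiomyocyte markers summed to 119400 to 121800 linear signal units in TG-17 and 119100 to 120900 in WT. Of these 10, 0 passed an unadjusted p of 0.05, where 6.65% of all genes were higher and 8.76% lower. Their log2 means lay between 8.59 and 14.35. The 6 atrial cardiomyocyte markers summed to 3180 to 3352 in TG-17 and 3831 to 4654 in WT, with 6 of 6 means lower in TG-17. Of these 6, 2 (Myl4 and Myl7) were at B above 0, against 0.341% of all genes. The atrial log2 means lay between 5.27 and 11.16. The 6 smooth muscle and pericyte markers summed to 11420 to 11730 in TG-17 and 12020 to 12870 in WT. The 7 leukocyte markers, 4 with higher and 3 with lower means in TG-17 (median log2 fold change 0.0062), summed to 2303 to 2365 in TG-17 and 2126 to 2231 in WT. Their brightest member Lyz2 stood at 0.27 and Cd3e, a T cell marker, at -0.27. The 7 skeletal muscle markers had 5 lower means (median -0.13), 2 of them (Myh4 and Myog) past an unadjusted p of 0.05 and none higher past it, while their sum of 9246 to 9312 in TG-17 and 8500 to 8972 in WT was mostly that of Ckm (0.11), which heart also expresses. Sums overlapped for fibroblast, endothelial, erythroid and brown adipocyte markers. The part of other cell types in the Nduf values was not tested.

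Promoter windows are shown for Nduf genes that hold a match to an element known to control respiratory genes: 4 with the NRF-1 element, among them the highest and the lowest Nduf gene, and all 5 with the YY1 element, which are counted as a group below. The microRNA itself is printed first, from RefSeq GRCm38.p6 at chr2:155622893-155622913 on the plus strand, with its seed, bases 2 to 8, in capitals.
miR-499-5p: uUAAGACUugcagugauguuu
NRF-1 is a transcription factor of nuclear genes for mitochondrial proteins. Its element GCGCANGCG was searched on both strands from 250 bases before to 50 bases after the start of each gene. The next windows, read along the gene's strand, show it in capitals in Ndufb10 at chr17:24724407-24724435 (minus strand), Ndufa11 at chr17:56717692-56717721 (plus), Ndufa8 at chr2:36049329-36049357 (minus) and the assembly factor Ndufaf5 at chr2:140170652-140170681 (plus), all GRCm38.p6. In Ndufa11 and Ndufaf5 overlapping matches on both strands form the capitals, and in Ndufa8 the match lies on the opposite strand.
Ndufb10: tcacctttctGCGCAGGCGtagaggtccc
Ndufa11: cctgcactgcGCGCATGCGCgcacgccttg
Ndufa8: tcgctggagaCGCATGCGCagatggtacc
Ndufaf5: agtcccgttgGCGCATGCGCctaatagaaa
YY1 is a zinc finger factor that binds near the start of many mitochondrial genes. Its core element AAGATGGCG is in capitals in Ndufs7 at chr10:80249463-80249491 (plus), Ndufc1 at chr3:51408915-51408943 (minus), Ndufs4 at chr13:114388045-114388069 (minus), Ndufs6 at chr13:73328433-73328459 (minus) and Ndufa9 at chr6:126849097-126849125 (minus).
Ndufs7: ggccgaggccAAGATGGCGgcgctggcgg
Ndufc1: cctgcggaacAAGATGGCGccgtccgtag
Ndufs4: tgcctacaggAAGATGGCGgcggtc
Ndufs6: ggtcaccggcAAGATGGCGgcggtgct
Ndufa9: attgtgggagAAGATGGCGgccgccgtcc

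No Nduf gene passed either threshold of the comparison. With limma across all 35556 probe sets, 0 of 43 reached B above 0, the log odds of a difference, and 0 of 43 had a Benjamini-Hochberg adjusted p under 0.05, the lowest being 0.254. Those calls held 0.366% and 0.00562% of all probe sets, and B above 0 held 0.341% of the 19938 genes. At an unadjusted p of 0.05, 7 Nduf genes were higher in TG-17 and 1 was lower, where 6.65% of genes were higher and 8.76% lower. All TG-17 values lay above all WT values for 14 Nduf genes, against 12.2% of genes, and below them for 1, against 13.6% of genes. The count of 7 was 2 without TG-17 mouse 2 or without WT mouse 2, 3 without WT mouse 1, and 4 without TG-17 mouse 3.

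The differences were small. The median log2 fold change over the 43 genes was 0.070, with a range of -0.17 to 0.42. Of 43 means, 38 were higher in TG-17 (88.4%). This share was 44.4% over all genes and 74.7% over genes with a mean of 10 or more. The count of 38 was 40 after each array was centred on its median and 26 after a second quantile normalization. For 30 of 43 genes the 95% interval of the difference lay wholly inside a 1.2-fold change in either direction. The widest reach was that of Ndufb10, whose upper bound was 1.64-fold.

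**Figure D1:**
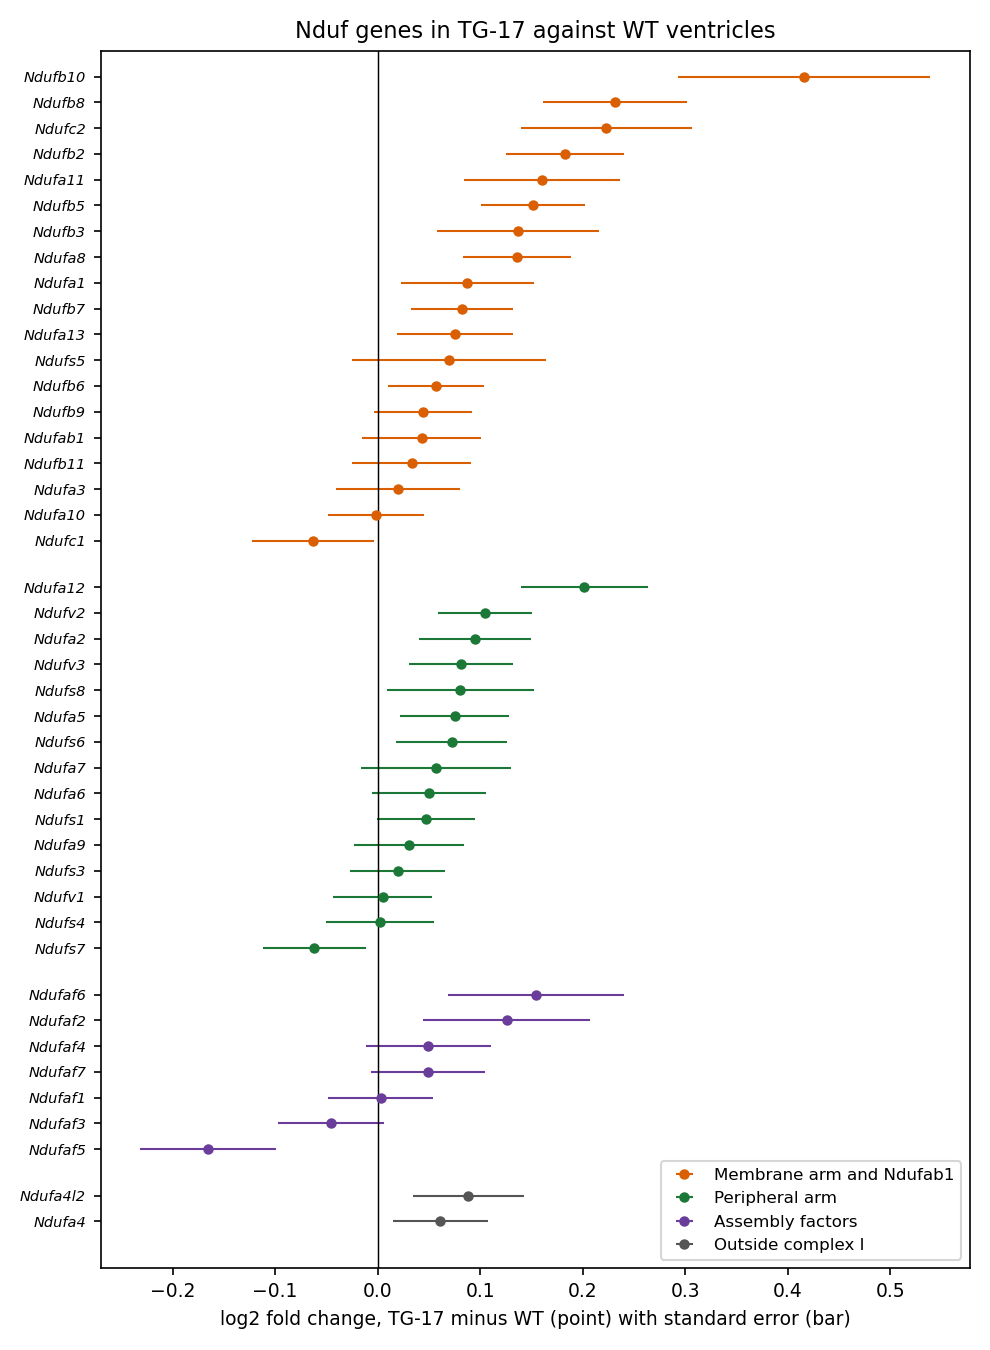
Log2 fold change (TG-17 minus WT) of each of the 43 Nduf genes on the horizontal axis, with its standard error from limma as a bar on either side, grouped by role; Ndufab1, which sits in both arms, is drawn with the membrane arm. The point farthest to the right is Ndufb10 at 0.42, and the assembly factors spread from -0.17 to 0.15.

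The accessory subunits of the membrane arm held most of the genes with the highest log2 fold changes. Of 18 membrane arm subunits measured, 16 means were higher in TG-17 (12 after the second quantile normalization), 6 had an unadjusted p under 0.05 and 9 showed no overlap between groups. Over all 19938 genes 44.4% had a higher mean, 6.65% were higher past that p and 12.2% had every TG-17 value above every WT value. Over the 1649 genes with a mean signal of 10 or more, which 14 of the 18 subunits reached, these shares were 74.7%, 19.0% and 37.7%. The membrane arm median log2 fold change was 0.085, that of all genes -0.018 and that of the bright genes 0.059. It was 0.13 without TG-17 mouse 1, and 0.030 after the second quantile normalization.

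Ndufb10, an accessory subunit on the intermembrane space side of the membrane arm, read 10.13, 10.23 and 10.31 in TG-17 and 9.78, 9.59 and 10.05 in WT. The log2 fold change was 0.42 ± 0.12 (SE), or 1.33-fold, with adjusted p = 0.254. All TG-17 values lay above all WT values, but the WT mice spread more widely (SD 0.23) than the TG-17 mice (SD 0.093), with WT mouse 2 lowest and WT mouse 3 closest to the transgenics. Ndufb8, whose protein is widely used on blots as a sign of assembled complex I, read 10.817, 10.857 and 11.002 in TG-17 and 10.625, 10.621 and 10.736 in WT (log2 fold change 0.23 ± 0.070, adjusted p = 0.259). Ndufc2, another membrane arm accessory subunit, read 11.91, 11.98 and 12.09 in TG-17 and 11.77, 11.65 and 11.89 in WT (0.22 ± 0.083, adjusted p = 0.298). In each of these genes the groups did not overlap, TG-17 mouse 3 was the highest of all mice and WT mouse 3 the highest of the WT mice.

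Ndufb2, a small membrane arm subunit, read 8.86, 8.90 and 8.86 in TG-17 and 8.77, 8.62 and 8.69 in WT (log2 fold change 0.18 ± 0.057, adjusted p = 0.265). Ndufa11, a membrane arm subunit related to the Tim17 translocase family, read 10.76, 10.67 and 10.84 in TG-17 and 10.65, 10.48 and 10.66 in WT (0.16 ± 0.076, adjusted p = 0.373). Both kept their groups apart, though in Ndufa11 TG-17 mouse 2 lay just above WT mouse 3. A second Ndufa11 probe set gave 0.23 ± 0.11, with overlapping groups. Ndufb5 (0.15 ± 0.051, adjusted p = 0.271) and Ndufa8 (0.14 ± 0.052, adjusted p = 0.304) also had non-overlapping groups, as did Ndufb7 and Ndufb6.

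At the other end stood Ndufc1 and Ndufa10. Ndufc1 read 11.46, 11.42 and 11.45 in TG-17 and 11.56, 11.55 and 11.41 in WT (log2 fold change -0.063 ± 0.060, adjusted p = 0.636), and its second probe set gave -0.094. WT mouse 3 lay below every TG-17 mouse, so the groups overlapped. Ndufa10, an accessory subunit of the nucleoside kinase fold, read 12.76, 12.76 and 12.80 in TG-17 and 12.77, 12.80 and 12.76 in WT (-0.0018 ± 0.047, adjusted p = 0.989), with the 6 mice intermixed.

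**Figure D2:**
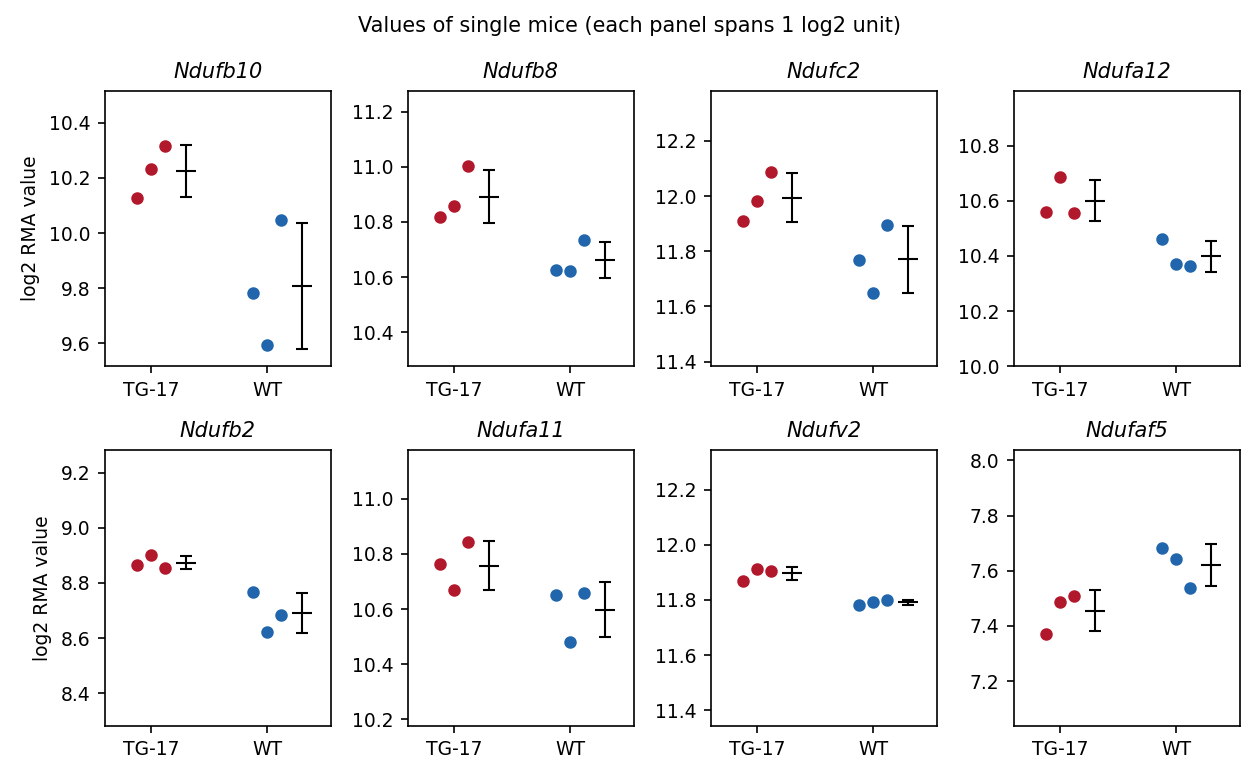
Log2 signal of selected Nduf genes in every mouse, TG-17 to the left of WT in each panel, with the group mean and SD (n = 3) beside the points and every panel spanning 1 log2 unit. TG-17 values of Ndufb10 run from 10.13 to 10.31 and WT values from 9.59 to 10.05.

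The peripheral arm differed less in its median. Over its 15 subunits the median log2 fold change was 0.057, with 14 means higher in TG-17 (8 after the second quantile normalization). Of these subunits 1 was at an unadjusted p under 0.05 (6.67%) and 4 had no overlap (26.7%). Those shares were 6.65% and 12.2% over all genes, and 19.0% and 37.7% over genes with a mean of 10 or more. Higher means in TG-17 were found for 44.4% of all genes and 74.7% of genes with a mean of 10 or more. Without WT mouse 2 the median was 0.038. The gene past that p was Ndufa12, an accessory subunit and paralog of the assembly factor Ndufaf2. It read 10.56, 10.69 and 10.56 in TG-17 and 10.46, 10.37 and 10.36 in WT (log2 fold change 0.20 ± 0.062, adjusted p = 0.260), with every TG-17 value above every WT value. Ndufs4, whose loss in mice causes a Leigh-like encephalopathy, read 10.86, 10.97 and 10.94 in TG-17 and 10.93, 10.89 and 10.94 in WT (0.0021 ± 0.053, adjusted p = 0.988), so its groups overlapped throughout.

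Over the 6 nuclear core subunits measured, most of which hold flavin or iron-sulfur clusters, the median log2 fold change was 0.034, and for all 6 the 95% interval stayed inside a 1.2-fold change. Ndufv2, an iron-sulfur subunit of the NADH-oxidising module, read 11.87, 11.91 and 11.91 in TG-17 and 11.78, 11.79 and 11.80 in WT (0.10 ± 0.046, adjusted p = 0.346). It was the core subunit whose groups did not overlap. Its partner Ndufv1, which binds NADH and flavin, read 12.23, 12.22 and 12.19 in TG-17 and 12.19, 12.18 and 12.24 in WT (0.0051 ± 0.048, adjusted p = 0.968). Ndufs1, which carries several iron-sulfur clusters, read 12.73, 12.75 and 12.69 in TG-17 and 12.69, 12.69 and 12.65 in WT (0.048 ± 0.048, adjusted p = 0.654).

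The core subunits nearer to the ubiquinone site overlapped between groups. Ndufs3 read 12.51, 12.51 and 12.54 in TG-17 and 12.50, 12.48 and 12.52 in WT (log2 fold change 0.020 ± 0.046, adjusted p = 0.860). Ndufs8 read 10.53, 10.63 and 10.67 in TG-17 and 10.51, 10.45 and 10.64 in WT (0.081 ± 0.072, adjusted p = 0.616), with mouse 3 highest in each group. Ndufs7, which carries the last cluster before ubiquinone, read 11.91, 11.90 and 11.94 in TG-17 and 12.02, 11.98 and 11.93 in WT (-0.062 ± 0.050, adjusted p = 0.583). It was the core subunit with a lower mean in TG-17, and its log2 fold change was -0.13 after the second quantile normalization, then past an unadjusted p of 0.05 (adjusted p = 0.386), and -0.011 after centring.

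The 7 assembly factors split in direction, with 5 means higher and 2 lower in TG-17 and a median log2 fold change of 0.049. That median was 0.018 without WT mouse 1, 0.019 without TG-17 mouse 2 or TG-17 mouse 3, and 0.024 without WT mouse 3, and 0.10 after centring and 0.0025 after the second quantile normalization. Ndufaf5, a hydroxylase that modifies Ndufs7, read 7.37, 7.49 and 7.51 in TG-17 and 7.68, 7.64 and 7.54 in WT. Its log2 fold change of -0.17 ± 0.066 (adjusted p = 0.315) was the lowest of the 43 genes, and every TG-17 value lay below every WT value, though only narrowly for WT mouse 3. The count of 1 Nduf gene lower at an unadjusted p of 0.05 was this gene, and it was 0 when any mouse other than WT mouse 3 was left out. Ndufaf5 also missed that p after centring (-0.11) and after the second quantile normalization (-0.14), where Ndufs7 was the 1 lower gene instead. Ndufaf6, needed early in assembly, read 7.30, 7.58 and 7.45 in TG-17 and 7.34, 7.20 and 7.32 in WT (0.15 ± 0.086, adjusted p = 0.432), with TG-17 mouse 1 inside the WT range. Ndufaf2 read 8.43, 8.36 and 8.58 in TG-17 and 8.42, 8.33 and 8.24 in WT (0.13 ± 0.082, adjusted p = 0.492), again with overlap.

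The remaining assembly factors differed by less. Ndufaf3 and Ndufaf4 act together on the ubiquinone-binding part of the peripheral arm. Ndufaf4 read 9.42, 9.49 and 9.55 in TG-17 and 9.37, 9.47 and 9.48 in WT (log2 fold change 0.050 ± 0.061, adjusted p = 0.722). Ndufaf3 read 8.54, 8.52 and 8.57 in TG-17 and 8.64, 8.54 and 8.59 in WT (-0.046 ± 0.051, adjusted p = 0.693). The means of these partners thus lay on opposite sides of 0, each with overlapping groups. Ndufaf7, an arginine methyltransferase, read 9.22, 9.30 and 9.20 in TG-17 and 9.20, 9.23 and 9.14 in WT (0.049 ± 0.056, adjusted p = 0.693), again with overlap. Ndufaf1, which works on the membrane arm with Ecsit and Acad9, read 9.70, 9.78 and 9.73 in TG-17 and 9.76, 9.74 and 9.70 in WT (0.0029 ± 0.052, adjusted p = 0.984).

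Structural subunits had a slightly higher median log2 fold change than assembly factors, and this difference was not tested. The structural subunits had 31 of 34 means higher in TG-17 (20 after the second quantile normalization) and a median of 0.074. Of them 7 were at an unadjusted p under 0.05 (20.6%) and 13 had no overlap (38.2%). Those shares were 6.65% and 12.2% over all genes, and 19.0% and 37.7% over genes with a mean of 10 or more. Higher means in TG-17 were found for 44.4% of all genes and 74.7% of genes with a mean of 10 or more. The structural median exceeded that of the assembly factors by 0.024. This difference of medians was -0.0049 without WT mouse 2 and 0.061 without WT mouse 1. As deviations from the WT mean, the structural medians were 0.046, 0.084 and 0.083 in the TG-17 mice and 0.0026, -0.025 and 0.020 in the WT mice. Every TG-17 mouse therefore stood above every WT mouse. The assembly factor medians were -0.016, 0.049 and 0.0075 in TG-17 and 0.048, 0.0098 and -0.040 in WT, and these overlapped. Taken as means over members, the structural values were 0.053, 0.10 and 0.11 in TG-17 and 0.0059, -0.032 and 0.026 in WT. The assembly factor means were -0.030, 0.047 and 0.057 in TG-17 and 0.031, -0.0037 and -0.027 in WT, with overlap. The structural mean minus the assembly mean varied between mice with an SD of 0.035 within groups.

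**Figure D3:**
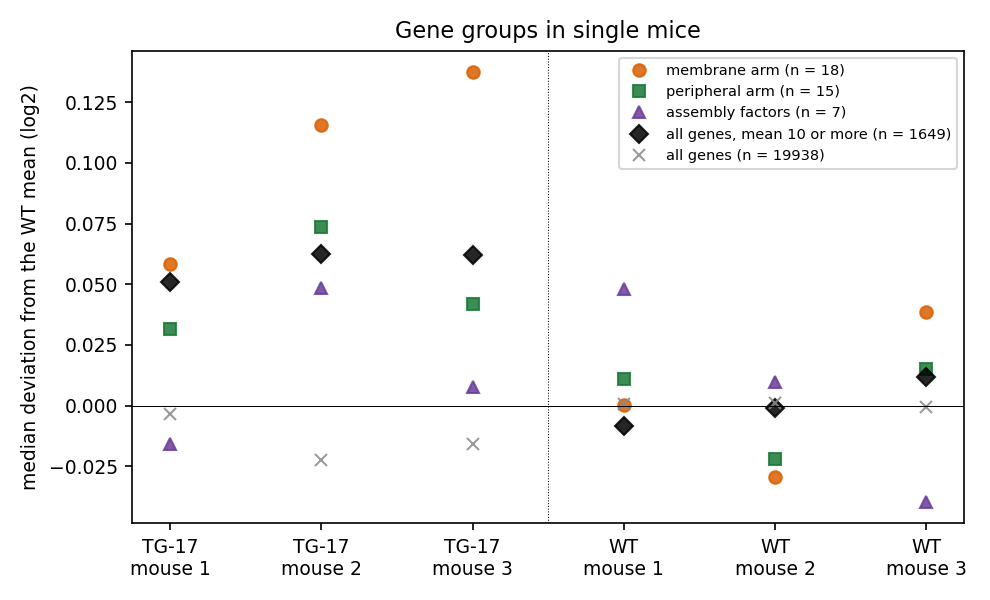
Median deviation from the WT mean (log2) in each mouse for membrane arm, peripheral arm and assembly factor genes, for genes with a mean of 10 or more and for all genes, TG-17 to the left of WT. The membrane arm medians were 0.059, 0.12 and 0.14 in the TG-17 mice and 0.00018, -0.029 and 0.039 in the WT mice.

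Mice of 1 group also differed over these genes. Among the 34 structural subunits, the highest TG-17 value was that of mouse 1 for 5, mouse 2 for 13 and mouse 3 for 16, and the lowest that of mouse 1 for 16, mouse 2 for 8 and mouse 3 for 10, so no order held for most subunits. In WT, mouse 3 was the highest for 22 and mouse 2 the lowest for 21. Subunits come from the same 6 arrays and are not separate replicates of the comparison.

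Other genes of like brightness had a positive median as well. Structural subunits are bright on this array, with means over all mice from 8.50 to 12.77. Genes with a mean of 10 or more, a bound chosen after the data were seen, gave 0.059 as their median log2 fold change, and 74.7% of the 1649 were higher in TG-17. Their medians per mouse were 0.051, 0.062 and 0.062 in TG-17 and -0.0082, -0.0011 and 0.012 in WT, so these too stood apart. The 28 structural subunits in that range had a median of 0.065. Of these 28, 25 had a higher mean in TG-17 (89.3%, against 74.7% of the bright genes). At an unadjusted p under 0.05, 6 of the 28 were higher (21.4%, against 19.0% of the bright genes). For 11 of the 28 all TG-17 values lay above all WT values (39.3%, against 37.7%). These last 2 shares were near the background. A second quantile normalization took the structural median to 0.012 and that of the bright genes to -0.0072.

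By brightness class the structural medians lay above those of all genes below a signal of 11 and close to them from 11 up. Between 10 and 11 they were 0.095 for 9 subunits and 0.065 for all genes, between 11 and 12 they were 0.065 for 12 subunits and 0.067 for all genes, and from 12 up 0.031 for 7 subunits and 0.033 for all genes. The bright membrane arm subunits stood higher, with a median of 0.085 over 14 genes, 5 of them at an unadjusted p under 0.05, while the 13 bright peripheral subunits had a median of 0.050 and 1 such gene. Assembly factors are dimmer, with means from 7.36 to 9.74, and genes with means from 7 to 10 had a median of 0.0088.

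**Figure D4:**
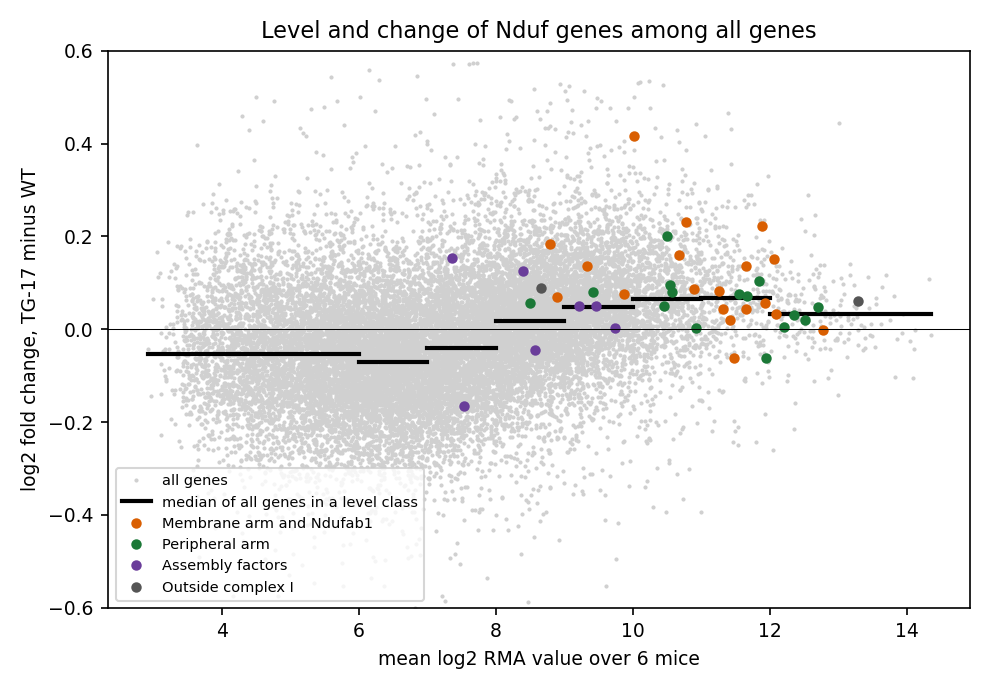
Log2 fold change (TG-17 minus WT) against mean log2 signal over all mice, for all 19938 genes in grey and the Nduf genes in colour, with black lines at the median of all genes in each class of signal; 31 genes beyond 0.6 in either direction are not drawn. The Nduf genes lie mostly on the right, where the median of all genes is above 0.

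The genes outside the complex gave like values. Ndufa4 read 13.30, 13.34 and 13.32 in TG-17 and 13.26, 13.24 and 13.28 in WT (log2 fold change 0.061 ± 0.046, adjusted p = 0.555), with no overlap. Ndufa4l2, a hypoxia-induced gene, read 8.65, 8.71 and 8.74 in TG-17 and 8.58, 8.66 and 8.58 in WT (0.088 ± 0.054, adjusted p = 0.469). TG-17 mouse 1 lay within the WT range there. The probe sets shared by Ndufb4 and Ndufb4b gave 0.0051 and -0.040, and that shared by Ndufs5 and Ndufs5-ps gave -0.020.

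Promoter matches were counted for the 38 Nduf genes with a RefSeq promoter. NRF-1 elements lay in 9 of them (23.7%), while 7.03% of 27025 genes held one. These were Ndufa5, Ndufa6, Ndufa8, Ndufa11, Ndufb10, Ndufs5, Ndufs6, Ndufaf4 and Ndufaf5, a group that includes both the highest and the lowest Nduf gene. The median log2 fold change was 0.075 in structural subunits with the element and 0.066 in those without it. YY1 elements lay in 5 promoters (13.2%, against 1.64% of genes), those printed above, all on the gene's own strand between 22 and 43 bases after the start. The median log2 fold change of these 5 subunits was 0.0021, and that of the structural subunits without the element was 0.081. The shorter elements of the GA-binding protein, CCGGAAG, and of the estrogen-related receptors, AAGGTCA, lay in 13.2% and 5.3% of Nduf promoters and in 9.93% and 5.38% of all. The matched NRF-1 and YY1 stretches of Ndufs6, which holds both, did not overlap. A match describes the letters of these windows only.

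The rest of the chain and its regulators were counted from lists of textbook members, and no gene of these lists reached B above 0. Among 12 complex I assembly factors without an Nduf name the median log2 fold change was 0.012. Past an unadjusted p of 0.05, where 6.65% of all genes were higher and 8.76% lower, 1 gene went each way. The higher was Acad9, a flavoprotein that assembles the membrane arm, with a mean of 10.18 in TG-17 and 9.96 in WT (0.22 ± 0.050, adjusted p = 0.225). The lower was Tmem70, which serves the assembly of ATP synthase and complex I, at 9.39, 9.29 and 9.29 in TG-17 and 9.55, 9.63 and 9.59 in WT (-0.27 ± 0.056, adjusted p = 0.224). Neither gene had overlapping groups.

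By complex, the median log2 fold change was -0.0013 over 4 complex II subunits and 0.027 over 9 complex III subunits, with none at an unadjusted p under 0.05. It was 0.098 over 12 complex IV subunits, with 3 higher, and 0.063 over 15 complex V subunits, with 2 higher. In complex IV these included Cox6a1 (0.26 ± 0.070, adjusted p = 0.240) and Cox6b1 (0.24 ± 0.072, adjusted p = 0.260), both nuclear accessory subunits. The 11 markers of mitochondrial mass had a median of 0.038 with 1 higher. The shares higher at that p were 25% in complex IV, 13.3% in complex V and 9.09% of the mass markers. Over all genes this share was 6.65%, and over genes with a mean of 10 or more it was 19.0%.

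Of 15 regulators of mitochondrial biogenesis, 2 were higher and 1 was lower past an unadjusted p of 0.05, with a median of 0.0035, where 6.65% of all genes were higher and 8.76% lower. Ppargc1a, the coactivator PGC-1 alpha, which drives respiratory gene expression, read 10.91, 11.36 and 11.58 in TG-17 and 10.23, 10.29 and 10.51 in WT (0.94 ± 0.18, adjusted p = 0.224). Every TG-17 value lay above every WT value. Gabpb1, a subunit of GA-binding protein, was 0.17 ± 0.049 (adjusted p = 0.252). The lower gene was Polrmt, the mitochondrial RNA polymerase, which read 8.84, 8.97 and 8.99 in TG-17 and 9.05, 9.13 and 9.13 in WT (-0.17 ± 0.061, adjusted p = 0.291), with every TG-17 value below every WT value. Nrf1, which encodes NRF-1, was 0.081 ± 0.061 and Yy1 was 0.0035 ± 0.052, with adjusted p = 0.554 and 0.980.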

How the data were processed

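Total RNA of cardiac ventricles was hybridised by the authors to 1 array per mouse, and the log2 values they deposited come, per the submitters' processing notes, from RMA, which corrects background, normalizes arrays by quantiles and summarises probes into probe sets. No RMA version or filter is named in the sources used here. All 35556 probe sets were used, with 0 columns left out. Of these, 21789 carried 1 gene symbol, 1621 several, and 12146 were not named in the annotation. The table was fitted by linear models with moderated variances (limma 3.58.1, lmFit then eBayes without trend, under R 4.3.3), TG minus WT, with 3 mice per group. B used an assumed share of 0.01, and p-values were Benjamini-Hochberg adjusted over all probe sets; standard errors and intervals are moderated. The mice were separate animals, and 3 per group limits the precision. Values of different probe sets were not compared as levels. The genes given mouse by mouse are the 6 highest and 6 lowest structural subunits, the core subunits, the assembly factors and both genes outside the complex, with Ndufb5 and Ndufa8 by their statistics; Acad9, Tmem70, Ppargc1a, Cox6a1, Cox6b1, Gabpb1, Polrmt, Nrf1 and Yy1 were chosen after their values were seen. Members and lists were chosen with earlier results of these data known. Promoters and the microRNA came from RefSeq GRCm38.p6. The fit was tested on simulated data. Alternatives comprised leaving out each mouse and 12 other settings.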

Additional observations from a re-analysis of the deposited data

How the results depend on the processing

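Under each alternative that recounted them no Nduf gene reached B above 0 or an adjusted p under 0.05. Over all probe sets, 130 at B above 0 became 287 with a mean-dependent prior variance, 714 with an assumed share of 0.05 and 69 with the replicate number as a block, and 29 to 112 without 1 mouse. The 2 at an adjusted p under 0.05 became 7 without dim probe sets, 6 with listed probe sets only, 26 with the mean-dependent variance and 0 with the replicate block, and 0 to 1 without 1 mouse. The 7 Nduf genes higher at an unadjusted p under 0.05 became 13 after median centring, 3 after a second quantile normalization, 11 with the mean-dependent variance and 2 to 8 without 1 mouse. The 1 lower, Ndufaf5, became 0 after centring and with the block, 0 to 1 without 1 mouse, and was Ndufs7 in its place after the second normalization.

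Scaling moved the medians of log2 fold change most. After centring and after the second quantile normalization they were 0.12 and 0.012 for structural subunits, 0.10 and 0.0025 for assembly factors, 0.11 and 0.0046 for the peripheral arm, and 0.14 and 0.030 for the membrane arm. The median of genes with a mean of 10 or more moved alike, to 0.11 and -0.0072, and that of all genes to 0.033 and -0.0086. Structural minus bright genes was 0.014 as deposited, 0.014 after centring and 0.019 after the second normalization, and ran from -0.0071 without TG-17 mouse 2 to 0.027 without TG-17 mouse 1. Without 1 mouse the medians ran from 0.050 to 0.090 (structural), 0.018 to 0.066 (assembly), 0.038 to 0.071 (peripheral) and 0.072 to 0.13 (membrane), and structural minus assembly from -0.0049 to 0.061.

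Genes near 0 turned direction: Ndufa10 (0.049) and Ndufaf3 (0.0056) after centring, and Ndufs1 (-0.010), Ndufs3 (-0.045), Ndufv1 (-0.051), Ndufs4 (-0.069) and Ndufaf1 (-0.055) after the second normalization. Without 1 mouse, Ndufv1 ran from -0.0068 to 0.024, Ndufs4 from -0.020 to 0.033, Ndufa10 from -0.015 to 0.010 and Ndufaf1 from -0.020 to 0.022. The cause was not tested. With all mice kept, 185 other gene values kept their direction and their side of B above 0, though not their size, and 94 other counts and medians stayed within 1.5 times or within 1 SD between mice. Same-numbered mice correlated by 0.024, -0.00044 and 0.057 in their deviations. TG-17 mouse 1 correlated best with WT mouse 2 (0.034), and TG-17 mouse 2 with WT mouse 3 (0.0052). For TG-17 mouse 3 the best partner was WT mouse 3 (0.057). The sample titles only number the mice, and the numbers were not taken as pairs.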
